A study of Mus musculus with 6 samples.

Results

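Exon usage was examined in 4 genes that encode chromatin proteins: H2afy (Entrez 26914), which encodes the histone variant macroH2A1, Hdac5 (Entrez 15184), Kmt2a (Entrez 214162) and Smarca2 (Entrez 67155). Their members are all rows carrying these gene names in the deposited tables of an exon usage test (DEXSeq), 1 table for each knockdown. This gave 6 rows, which are 5 distinct exon bins of the 1089 distinct bins listed in 702 genes. An exon bin is an exon or a piece of an exon, numbered within its gene. The rows were chosen by the authors' adjusted p-value against the control, since only bins under 0.01 are in the tables. Their folds and p-values are therefore a description only.

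The RNA came from cultured ventricular-subventricular zone cells of C57/B6 mice, derived at postnatal day 5 to 7. The ventricular-subventricular zone is the niche of neural stem cells along the lateral ventricle. All cultures were grown in a self-renewal medium with serum, bovine pituitary extract, EGF and FGF, all carried a hairpin in the PSICO-R vector, and all were sorted for its fluorescent marker (GFP, or GFP with mCherry). The control group (shCtrl) carried a hairpin against luciferase, the shPnky group a hairpin against the long noncoding RNA Pnky, and the shPtbp1 group a hairpin against Ptbp1, an RNA-binding repressor of many alternative exons. Each group had 2 libraries. Nothing in the labels says that these came from separate animals or cultures, so every error given here reflects variation between libraries, which may be technical. An SD is the spread of the 2 libraries of a group. An SE comes from a fitted count model (edgeR) that shares information on spread across the listed bins.

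The 4 proteins act at different steps of chromatin regulation. MacroH2A1 replaces H2A in a share of nucleosomes and carries a large macrodomain after its histone part. A pair of mutually exclusive exons within the macrodomain gives the isoforms macroH2A1.1, which binds ADP-ribose, and macroH2A1.2, which does not. HDAC5 is a class IIa histone deacetylase that shuttles between nucleus and cytoplasm and represses MEF2 target genes. KMT2A (MLL1) is a methyltransferase for lysine 4 of histone H3 that subventricular zone stem cells need to make neurons. SMARCA2 (BRM) is an ATPase of the SWI/SNF (BAF) chromatin remodelling complexes, alternative to SMARCA4.

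The mutually exclusive pair of H2afy is shown because the bins of this gene carry the main result. The sequences were read from the transcripts of GENCODE M21 (build GRCm38), which has 2 H2afy transcripts in its basic set, each with 9 exons. In both, the exon that differs is exon 6, an internal coding exon on the minus strand. The exon of H2afy-202 lies at chr13:56088252-56088342 and has 91 bases. The exon of H2afy-201 lies at chr13:56089758-56089857 and has 100 bases. The 9 bases between them amount to 3 codons, and the coding sequences specify 369 residues (H2afy-202) and 372 residues (H2afy-201). Both are printed 5′ to 3′ in the direction of transcription, and capitals mark bases that are identical in a global alignment of the pair.
H2afy-202 exon 6: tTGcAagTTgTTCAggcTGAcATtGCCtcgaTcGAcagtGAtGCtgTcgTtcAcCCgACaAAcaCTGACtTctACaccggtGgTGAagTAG
H2afy-201 exon 6: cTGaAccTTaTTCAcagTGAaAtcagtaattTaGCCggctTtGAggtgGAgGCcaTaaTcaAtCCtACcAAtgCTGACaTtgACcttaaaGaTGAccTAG
Of 91 aligned positions, 48 were identical (52.7%).

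Bins 3 and 4 of H2afy were not matched to these exons, because the tables hold no positions and the sources used here do not name the annotation behind the numbering. The listed bins bear on the direction of the numbering but do not settle it. The first bin of a gene has no number suffix. In the shPtbp1 table it was listed for 120 genes on the minus strand and 43 on the plus strand. Its median mean count was 3620 reads on the minus strand, against 470 over the other listed bins of that strand. On the plus strand it was 762 reads against 1122. In the shPnky table the first bin was listed for 36 genes on the minus strand and 13 on the plus strand. Strands were taken from GENCODE M21, where H2afy is on the minus strand. Counted from 0 at the lowest coordinate over its 10 exons in both transcripts, the exons printed above have the numbers 3 (H2afy-202) and 4 (H2afy-201). Counted from the first exon they have the numbers 6 and 5. An annotation that cuts exons wherever transcripts differ gives 12 pieces, and the pair then has the numbers 4 and 5 from the lowest coordinate. The submitters' processing notes name another build, mm9.

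In shPtbp1, bins 3 and 4 of H2afy moved in opposite directions. Bin 4 counted 3665 and 3282 reads under shCtrl against 2327 and 2161 under shPtbp1. Bin 3 counted 814 and 717 reads under shCtrl against 985 and 1063 under shPtbp1. The groups did not overlap in either bin: bin 4 was lower in both knockdown libraries and bin 3 was higher in both. Bins were listed for a difference from shCtrl, so a lack of overlap is a description only, here and below. How many other listed bins also lack overlap was not counted. Of the reads in these 2 bins, bin 3 took 18.2% and 17.9% in the control cells and 29.7% and 33.0% after Ptbp1 knockdown. Its mean share thus went from 18.1% ± 0.17 to 31.4% ± 2.28 (SD, n = 2 each), a difference of 13.3 percentage points. In shCtrl, bin 4 held 4.54 reads for each read of bin 3 on average, and in shPtbp1 it held 2.20. The share leaves out every bin of H2afy that was not called.

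The authors' deposited table lists a usage log2 fold of -0.12 for bin 4 (authors' adjusted p = 1.29e-16) and of 0.37 for bin 3 (authors' adjusted p = 8.27e-13). They ranked 137th and 177th of 958 listed bins by adjusted p. Of 160290 bins tested in this comparison the authors called 0.598%, and this share is given only as background, since the call is what chose the members. The usage fold compares values fitted in the authors' model and is not a ratio of reads. Scaled over the listed bins, the reads of bin 4 differed by a log2 count change of -0.69 (SE 0.045) and those of bin 3 by 0.36 (SE 0.067), against a median of 0.02 over the 958 listed bins.

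In shPnky, bin 3 of H2afy moved the other way. Its 814 and 717 reads in shCtrl stood against 691 and 439 in shPnky. As counts scaled to 1000000 listed reads per library (CPM), these were 398 and 390 in shCtrl and 287 and 254 in shPnky, so both knockdown libraries were below both controls. For shPnky the authors' deposited table gives a usage log2 fold of -0.27 (authors' adjusted p = 5.17e-09), the 55th of 249 listed bins by adjusted p. The authors called 0.155% of 160603 bins tested in shPnky, again only background to the choice of the rows. The scaled log2 count change was -0.49 (SE 0.071), against a median of 0.05 over the 249 listed bins. Bin 4 is not listed in this table, and bins that were not called are not analysed here, so the share of bin 3 against bin 4 has no value in shPnky.

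**Figure D1:**
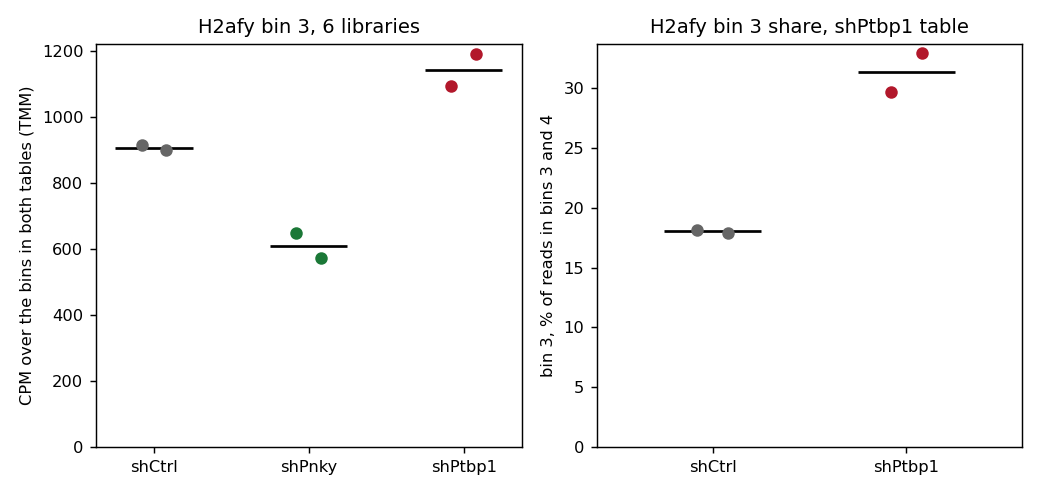
Left: H2afy bin 3 in each of the 6 libraries, as CPM over the 118 bins listed in both tables (TMM-scaled), with points for libraries and lines for group means. Right: the percent of reads in bins 3 and 4 that fall in bin 3. Bin 3 is lowest in shPnky, between in shCtrl and highest in shPtbp1, and its share is near 18.1% in shCtrl and 31.4% in shPtbp1.

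Bin 3 of H2afy is the only member listed in both tables, which allowed the knockdowns to be compared with each other without the control. The 2 tables hold identical control counts for the 118 bins they share. On 1 scale over these bins, bin 3 stood at a CPM of 913 and 900 in shCtrl, at 649 and 571 in shPnky and at 1094 and 1189 in shPtbp1. No pair of the 3 groups overlapped, which is again a description only, since the bin was listed for a difference from shCtrl in both knockdowns. Fitted on the 4 knockdown libraries alone, the reads of bin 3 were higher in shPtbp1 than in shPnky, with a log2 count difference of 0.91 (SE 0.088, quasi-likelihood test of edgeR, Benjamini-Hochberg adjusted p = 1.86e-13 over 118 bins), and both shPtbp1 libraries were above both shPnky libraries. A call was common here: 73 of the 118 bins passed an adjusted p of 0.05 in this edgeR test (61.9%), 36 higher in shPtbp1 and 37 lower. Without shPnky replicate 1 the count of called bins was 48, and H2afy bin 3 was still called (log2 count difference 0.99, edgeR adjusted p = 0.013). In size, 10 bins had a larger absolute difference than H2afy bin 3, and the median absolute log2 difference was 0.21. Against the same controls, the log2 count change of bin 3 was -0.49 in shPnky and 0.36 in shPtbp1. The direction of the difference between the knockdowns was thus known beforehand, so the test is no independent support. The bins were listed on these same libraries, and the spread was estimated over them only. The size may therefore be too large and the SE and p-value too small, which was not tested. Counts of 1 bin cannot tell a change in the level of the gene from a change in the use of the exon, and no other bin of H2afy is in both tables.

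Hdac5 was listed in shPnky only. Its bin 26 counted 69 and 54 reads under shCtrl against 132 and 118 under shPnky. As CPM over listed bins, that is 33.7 and 29.4 in shCtrl and 54.9 and 68.3 in shPnky. The authors' deposited table gives a usage log2 fold of 0.44 (authors' adjusted p = 0.00458). The scaled log2 count change was 0.98 (SE 0.17).

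Kmt2a was also listed in shPnky only. Bin 15 counted 44 and 34 reads under shCtrl against 103 and 67 under shPnky, the fewest reads of any member. Its CPM stood at 21.5 and 18.5 in shCtrl and at 42.8 and 38.8 in shPnky. The authors' deposited table gives a usage log2 fold of 0.47 (authors' adjusted p = 0.00616), and its scaled log2 count change was 1.07 (SE 0.19). With mean counts of 62 and 93.3 reads, the bins of Kmt2a and Hdac5 lie far below the median of 1713 reads over the bins of this table. They are also the members nearest to the authors' threshold of 0.01, at ranks 214 and 206 of 249, while bins beyond it are not analysed here. Hdac5 and Kmt2a have 1 listed bin each, so no share within the gene can be given.

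Smarca2 was listed in shPtbp1 only, and its usage fold was the smallest among the 6 rows. Bin 35 counted 3692 and 3485 reads under shCtrl against 3122 and 3188 under shPtbp1. Both knockdown libraries were below both control libraries, also in CPM over listed bins (942 and 992 against 860 and 896). The authors' deposited table gives it a usage log2 fold of -0.07 (authors' adjusted p = 1.2e-07), 295th of 958 by adjusted p and 701st of 945 by absolute fold. Its scaled log2 count change was -0.25 (SE 0.044). It was -0.14 when libraries were scaled by their total listed counts, a scaling that moved the median of all listed shPtbp1 bins to 0.13.

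**Figure D2:**
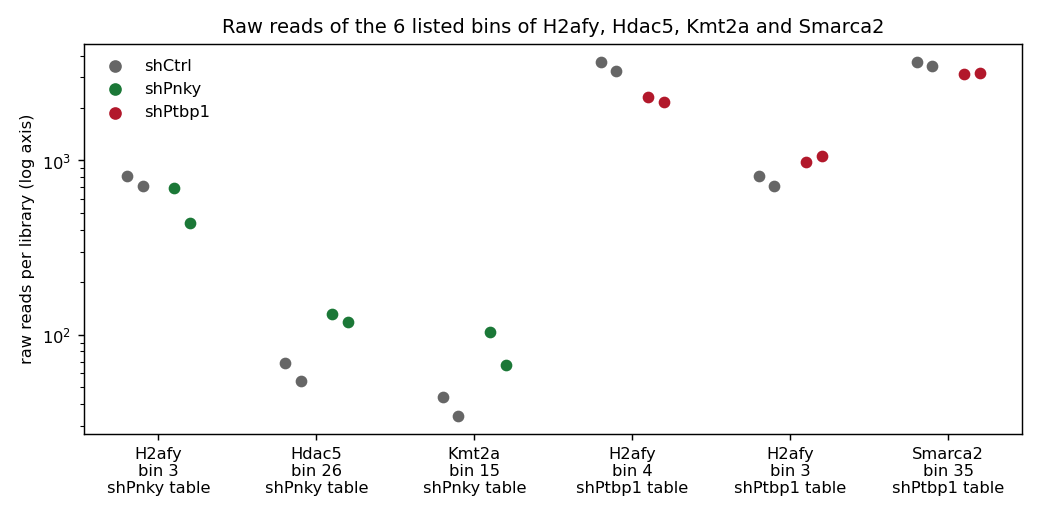
Raw reads per library (log axis) for the 6 listed rows, with grey points for shCtrl, green for shPnky and red for shPtbp1. H2afy bin 3 appears under both tables with the same control reads, and its knockdown points lie below them in shPnky and above them in shPtbp1, while Kmt2a bin 15 has the fewest reads (34 to 103).

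The size of a listed fold depends on depth, since a bin with few reads is called only at a large fold. Each member was therefore set beside the other listed bins of its table whose mean count was within 2 times its own, a comparison chosen after the values were seen. For H2afy bin 3, 25 of 271 such bins had a larger absolute log2 fold of usage in shPtbp1 and 5 of 74 in shPnky, with a median absolute fold of 0.15 in each. For H2afy bin 4, 51 of 237 such bins had a larger absolute fold (median 0.07). Bin 3 of H2afy thus had a fold above most listed bins of like depth in both tables. In shPnky, Hdac5 bin 26 was exceeded by 5 of 19 bins (median 0.36) and Kmt2a bin 15 by 4 of 14 (median 0.40). Smarca2 bin 35 was exceeded by 118 of 233 bins (median 0.07), so its fold was of the usual size at that depth. These ranks describe called bins and carry no test.

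**Figure D3:**
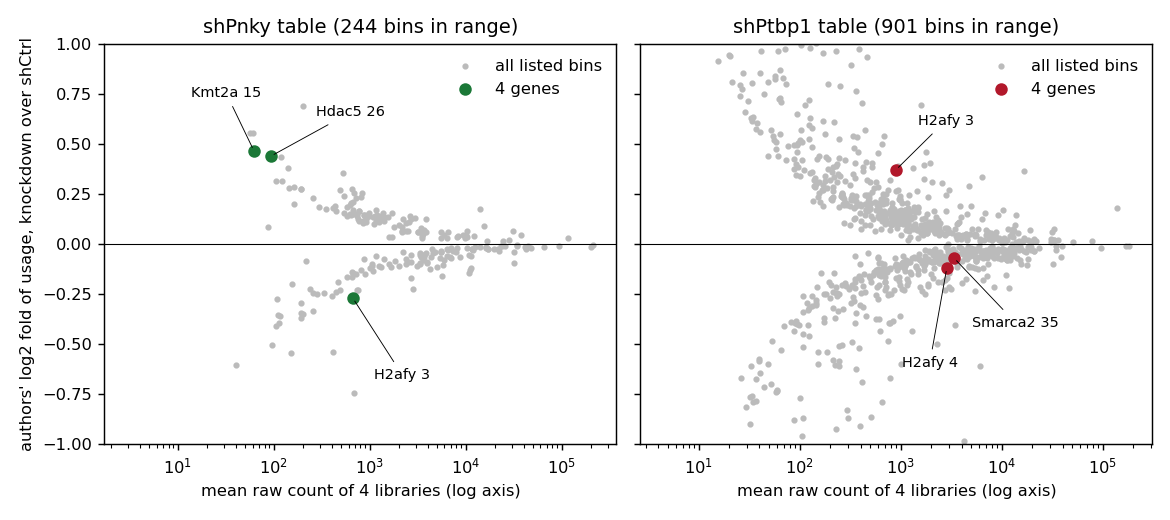
Authors' log2 fold of usage against the mean raw count of 4 libraries (log axis) for the listed bins of each table, with the members coloured and named. Grey points narrow toward 0 as counts rise, and H2afy bin 3 lies at -0.27 (shPnky) and 0.37 (shPtbp1). The axis stops at a log2 fold of 1 in each direction, which leaves out 5 bins in shPnky and 44 in shPtbp1, none of them a member.

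The other genes of chromatin regulation were taken from a list of 215 genes in 10 classes, which contains the 4 members. For shPtbp1, 11 of the 215 had a listed bin; the leading bin (the bin of smallest adjusted p) was higher in 6 and lower in 5. Over all 602 genes of that table it was higher in 282 and lower in 308, and the remaining genes had no fold for it. The median log2 fold of their 13 bins was 0.13, against 0.04 over all listed bins with a fold. For shPnky, 4 of the 215 were listed, Hdac5 and Kmt2a higher and H2afy and Whsc1l1 lower, beside 69 higher and 106 lower of all 175 listed genes, with a median log2 fold of 0.19 over 4 bins against -0.01 over all 249. Genes that were tested and not called, or not tested, cannot be separated here, so no share of expressed chromatin genes is given. The number of all genes tested is unknown too, so the counts of 11 and 4 have no share over all genes beside them. Whether they differ from such a share was not tested.

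Among 25 genes of the SWI/SNF complexes, 3 were listed in shPtbp1 and none in shPnky. The authors called 0.598% of tested bins in shPtbp1 and 0.155% in shPnky. These percentages count bins, and a gene can have many bins, so they are no background for 3 of 25 genes. Whether the class differed between the knockdowns was not tested. Beside Smarca2, the listed genes were Ss18, which encodes a BAF subunit, and Phf10, which encodes a subunit of the PBAF form. Ss18 bin 3 went from 213 and 194 reads in shCtrl to 353 and 362 in shPtbp1 (log2 fold of usage 0.42 in the authors' deposited table). Phf10 bin 1 went from 1749 and 1596 reads to 1164 and 1153 (log2 fold of usage -0.11 in the authors' deposited table). The 3 genes thus had leading bins in both directions.

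Of 30 histone methyltransferase genes, Kmt2a and Whsc1l1 were listed in shPnky and Whsc1, Whsc1l1 and Ehmt2 in shPtbp1. Whsc1l1 (NSD3) bin 24 is the only listed bin of this list other than H2afy bin 3 that is in both tables. In the authors' deposited tables its log2 fold of usage was -0.05 in shPnky and -0.06 in shPtbp1, so it was lower in both comparisons, which share their controls. Its reads were 4076 and 3706 in shCtrl, 4183 and 2734 in shPnky and 2576 and 2764 in shPtbp1. The direct comparison gave a log2 count difference of -0.32 for shPtbp1 against shPnky (SE 0.061, edgeR adjusted p = 6.43e-06). Of the 118 shared bins, 61.9% were called in this test. The bins were listed on these same libraries, so the p-value is not independent of that choice. The difference was -0.27 without shPnky replicate 1, where it missed the threshold, and -0.22 with scaling by total listed counts. Counts of this 1 bin cannot tell the level of the gene from the use of the exon. For Whsc1 (NSD2) bin 8 and Ehmt2 (G9a) bin 9, the authors' deposited table gives usage log2 folds of 0.06 and 0.13 in shPtbp1. The reads of Whsc1 bin 8 were 9913 and 9151 under shCtrl against 7830 and 8304 under shPtbp1, so its reads were lower while its usage within the gene was higher. Ehmt2 bin 9 had 1151 and 1021 reads under shCtrl against 1189 and 1165 under shPtbp1.

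Outside these classes, the shPtbp1 table lists bins of Cbx5, Sin3b, Mtf2 and Dnmt3b. Cbx5 (HP1 alpha, a reader of methylated histone H3) bin 4 went from 174 and 150 reads to 287 and 239, and Sin3b (a corepressor scaffold) bin 11 from 392 and 335 to 289 and 287. Both listed bins of Mtf2, which encodes an accessory protein of the Polycomb complex PRC2, had a higher usage (0.34 and 0.26 as log2 folds, per the authors' deposited table). For bin 17 of Dnmt3b, a DNA methyltransferase gene, the authors' deposited table gives a usage log2 fold of 0.92, on 10 and 7 reads in shCtrl and 21 and 24 in shPtbp1. Of 10 histone variant genes only H2afy was listed, and of 15 deacetylase genes only Hdac5. No gene of the acetyltransferase, demethylase, other remodeller or chromosome architecture classes was listed in either table. These class counts also lack a share over all genes, so they do not show that a class differs from other genes.

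**Figure D4:**
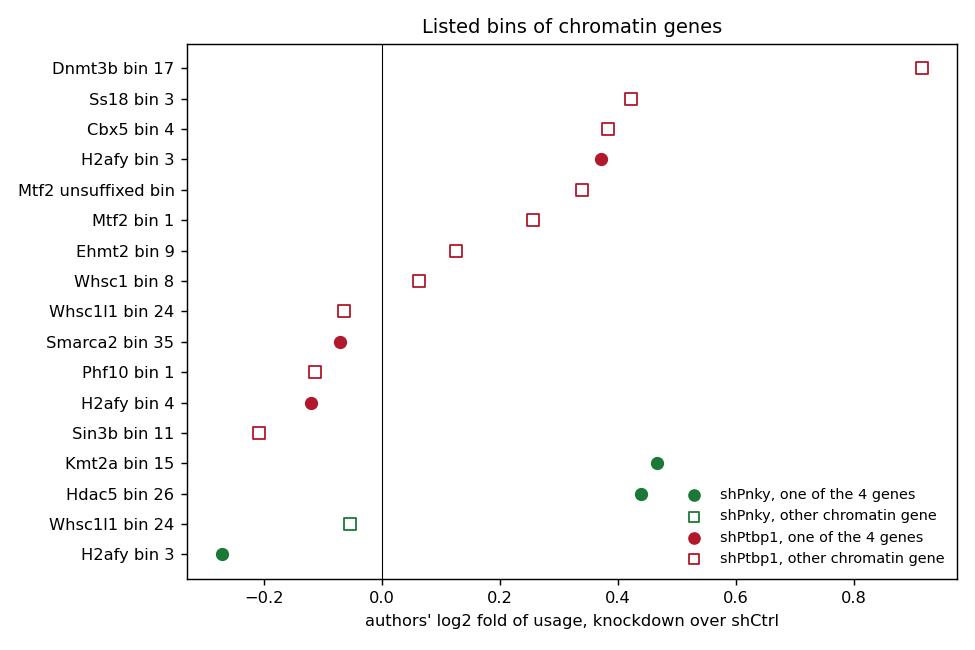
Authors' log2 fold of usage for every listed bin of the chromatin gene list, with circles for H2afy, Hdac5, Kmt2a and Smarca2, squares for other genes, green for shPnky and red for shPtbp1. H2afy bin 3 is the lowest shPnky point (-0.27) and lies at 0.37 in shPtbp1; Dnmt3b bin 17 is the highest point (0.92).

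As a check of the labels, bin 13 of Ptbp1 counted 22334 and 19594 reads under shCtrl against 4967 and 4961 under shPtbp1. No bin of Pnky is listed, so its knockdown was not checked here. Listed reads summed to between 1727096 and 2403866 per library in the shPnky table and to between 3514859 and 3920040 in the shPtbp1 table. The depth of the whole libraries is unknown, since the sums hold called bins only. Of 37 marker genes of 6 cell types, the tables list bins of Gfap and Vim in shPnky and of Aldoc, Egfr, Gfap and Syt1 in shPtbp1. All but the neuronal Syt1 belong to the neural stem cell and astrocyte list. Markers of microglia, endothelial and mural cells, the oligodendrocyte lineage and ependymal cells are not among the listed bins, which says nothing of their level. In bulk RNA, a change in the mix of cells and a change in splicing within cells cannot be told apart.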

How the data were processed

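The 6 mRNA libraries (poly(A)-selected, strand-specific, per the labels' protocols) were grouped by the hairpin in the labels. The submitters' processing notes name Cufflinks, Cuffnorm, Cuffdiff 2.1.1, TopHat, TopHat2 2.0.10 and the build mm9, without roles. Not given in the sources used here are the program that counted reads, the annotation of bins and the DEXSeq version. Per the file headers, the authors deposited, for bins with an adjusted p under 0.01, raw counts in 4 libraries, their mean signal, a p-value and adjusted p-value, a log2 fold and model scores (fitted usage, dispersion, statistic).

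The members and gene lists were chosen with earlier results of these data known. Bin numbers come from row names. The numbers of tested bins were recovered from p and adjusted p. Count changes were fitted over all listed bins of a table with edgeR 4.0.16 (R 4.3.3, TMM, quasi-likelihood), and shPtbp1 against shPnky over the 118 shared bins at an adjusted p under 0.05. On simulated counts for the latter, 20 of 20 bins changed by a log2 fold of 1 and 0 of 98 unchanged bins were called. The simulation used 1 fixed spread, fewer changed bins than were called in the data, and no choice of bins by a difference. It therefore checks the code and gives no error rate for these data. Scaling rests on called bins. Of 224 list symbols, 1 matched no gene, and synonyms were merged into 215 genes by Entrez number in a GRCm38 table. Genes named are the 4 members with every bin, every list gene with a listed bin, Ptbp1, and the cell type markers with a listed bin. Alternatives were DESeq2 1.42.0, other scalings, stricter thresholds, a mean count of at least 50, leaving out each library and a replicate block.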

Additional observations from a re-analysis of the deposited data

Results flagged for a closer look

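H2afy bin 3 was flagged because its reads differed between the 2 knockdowns in a direct test, as did the reads of most shared bins. Of the 118 bins, 73 passed that test (61.9%). The reads of H2afy bin 3 were higher in shPtbp1 than in shPnky by 0.91 on the log2 scale (edgeR adjusted p = 1.86e-13). Both shPtbp1 libraries were above both shCtrl libraries and both shPnky libraries were below them. The bin was listed for its differences from shCtrl, so the direction was known beforehand and the test is no independent support. Whether the level of H2afy also differs between the groups was not tested, because no second bin of the gene is in both tables.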

How the results depend on the processing

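The log2 count difference of H2afy bin 3 between shPtbp1 and shPnky kept its direction under 8 alternatives (0.84 to 1.01). Of these, the mean count of at least 50 removed no bin and so repeats the main fit. The difference ranged from 0.84 to 0.99 when each library was left out. With a replicate block it was 0.91 (edgeR adjusted p = 5.67e-14), and the block called 66 of 118 bins instead of 73. The number of called bins was 48 to 64 when a library was left out, with 48 without shPnky replicate 1. In such fits the lone library is assumed to vary like the other group. The share of H2afy bin 3 was higher in shPtbp1 by 11.6 or 15.0 percentage points with 1 library per group. For these values the same-numbered library was left out of both groups at once. Member bins with a higher count numbered 2 (shPnky) and 1 (shPtbp1) under every scaling, block and left-out library. The members were chosen on these same libraries, so the kept directions of the counts and of the share add no support. Of the 6 rows, 4 had an adjusted p under 0.001, which left out Hdac5 and Kmt2a. The chromatin genes listed in shPnky fell from 4 to 2 at that threshold. Scaling by total listed counts moved the median log2 difference between knockdowns to 0.11. Same-numbered libraries did not deviate together (correlations of -0.29, -0.04 and 0.00), so the main fits did not take the numbers as pairs. Crossing them in the shPnky table, an alternative chosen after seeing the data, left 2 member bins higher. Hdac5 and Kmt2a rest on few reads per library, which limits their precision.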
